A study of Rattus norvegicus with 34 samples.

Results

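Glutathione transferases were followed in rat testis through 10 genes: Gsta1, Gsta4, Gstm1, Gstm2, Gstp1, Gstt1, Gstt2, Gsto1, Mgst1 and Gstk1. They were taken as every probe set (a set of short DNA probes against 1 transcript) whose only platform gene symbol was one of these names, which gave 11 probe sets, 2 of them for Gstt2, of 31042 probe sets and 14217 genes measured. The study fed triazole fungicides to Wistar Han IGS rats from gestation day 6 to postnatal day 92 and measured testis RNA on Affymetrix Rat Genome 230 2.0 arrays, 1 array per animal. The groups were Control (0 ppm, 6 arrays), myclobutanil at 500 ppm (M500, 3 arrays) and 2000 ppm (M2000, 5), propiconazole at 500 ppm (P500, 4) and 2500 ppm (P2500, 5), and triadimefon at 500 ppm (T500, 4) and 1800 ppm (T1800, 4). Whole testis was used in all groups, and the same exposure period is labelled for all of them. Animal numbers fall in an earlier and a later run, here called series. Control replicates 05 to 07 and T1800 replicates 03 to 05 are in the later series, and all other arrays are in the earlier one. Another 3 labelled arrays, replicate 01 of Control and of T1800 and replicate 03 of M500, carry a note of exclusion in their labels and were not analysed here. Litter was not given in the sources used here, so p-values treat each rat as independent.

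Glutathione transferases couple the tripeptide glutathione to electrophiles, among them drug metabolites, quinones and the aldehydes that lipid peroxidation leaves behind, and the conjugates are then pumped out of the cell. The alpha (Gsta), mu (Gstm), pi (Gstp), theta (Gstt) and omega (Gsto) classes are soluble, kappa (Gstk) is found in mitochondria and peroxisomes, and the microsomal Mgst1 sits in membranes. Many of them are inducible in liver by foreign compounds, through the nuclear receptors CAR and PXR and through NRF2, a transcription factor that binds the antioxidant response element. In testis, alpha and mu class enzymes are abundant, and some mu class members are found in germ cells.

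Promoter letters are shown for 3 of the genes followed below, Gstp1, Gstm1 and Gstm2. Each line holds the 100 bases before the RefSeq start of the gene in the GRCr8 build, 5′ to 3′ on the minus strand, at chr1:210769706-210769805 for Gstp1, chr2:198343384-198343483 for Gstm1 and chr2:198316918-198317017 for Gstm2. Capitals mark the core of the antioxidant response element, TGACNNNGC, searched on both strands.
Gstp1: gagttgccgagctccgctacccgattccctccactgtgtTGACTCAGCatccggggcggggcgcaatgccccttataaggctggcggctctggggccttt
Gstm1: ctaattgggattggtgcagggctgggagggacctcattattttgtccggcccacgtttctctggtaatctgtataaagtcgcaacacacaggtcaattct
Gstm2: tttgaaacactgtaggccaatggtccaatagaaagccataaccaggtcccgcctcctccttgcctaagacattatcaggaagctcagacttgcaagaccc

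The core lay at -61 to -53 from the Gstp1 start, and the stretches of Gstm1 and Gstm2 held none. RefSeq windows of 300 bases (250 before and 50 after the start) were found for 8 of the 10 genes, all but Gstt1 and Gstt2. Of these, 2 held the core, Gstp1 and Gsta1, where it lay 31 to 39 bases after the start. Over all 33469 windows the core was present in 12.1%. Gstm1 and Gstm2 are neighbours on the chromosome, with 0 protein-coding genes between them in the annotation. Set side by side without gaps, their 2 stretches of 100 bases shared 23 bases. A match here is only a run of letters and says nothing about binding.

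Values are scores per probe set. They behave like logarithms, but the base is unknown, so a difference is stated in score units, never as a fold. The level of 1 member probe set is never set against that of another member. Member levels are set only against a hybridisation control, as a rough guide to signal. Differences between groups were tested with limma over all probe sets, with an adjusted p (Benjamini-Hochberg over 31042 probe sets) under 0.05 as the threshold. Gsta1 and Mgst1 scored above bioB, the weakest of the hybridisation controls added to each array, on all 31 arrays, Gstm1 on 30, Gsta4 and Gsto1 on 28, Gstm2 on 27, and Gstp1 and Gstt1 on 26. Gstk1 passed it on 0 arrays, and the Gstt2 probe sets 1368409_at and 1396468_at on 1 and 0, so both genes were measured weakly.

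Some arrays stood apart from the rest of the series. P2500 replicates 02, 03 and 04 carried liver transcripts. They were set apart by such transcripts measured in these same data, so the marker scores describe that choice and do not test it. All 14 of 14 liver markers scored above every one of the other 28 arrays there, albumin (Alb) at 3.89 to 4.15 against -0.124 to 2.29, and the 14 scores summed to 22.1 to 22.8 against at most 3.78 elsewhere. The actin gap, the score of the 3' minus the 5' beta-actin control probe set, grows as the 5' ends of transcripts are lost. It was 1.47 in replicate 05 of both M2000 and P2500, 1.6 in M500 replicate 04, and 1.63 and 1.67 in Control replicates 06 and 02, the 5 arrays above 1.4. T500 and T1800 held no such array, with gaps of 0.704 to 0.875 and 0.806 to 0.928. No array was identical to another. Testis identity was borne by the spermatid markers, whose 9 measured scores summed to 31.5 to 34.8 over the 31 arrays. Fewer cells of a type and less RNA per cell cannot be told apart in such bulk samples.

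None of the 11 glutathione transferase probe sets passed the threshold in any of 6 comparisons with Control. Their differences ran up to 0.49 score units, and the largest belonged to Gstm2, whose standard error was also the largest. Over all probe sets the call rate was 0% for M500, M2000, P500, P2500 and T500 and 0.00644% for T1800, so the count of 0 members was close to the background in each. At an unadjusted p under 0.05 there were 2 member probe sets in M500 (9% of all probe sets), 0 in M2000 (1.7%), 0 in P500 (3.36%), 3 in P2500 (4.15%), 1 in T500 (7.62%) and 3 in T1800 (5.84%), and all of these were higher than Control. Array weights give less say to arrays that vary more around their group means. With them limma called 2 member probe sets in P2500 (2.84% of all), in a fit that keeps the liver arrays. The number was 0 in M500 (0.197%), M2000 (0.0258%), P500 (0.0548%), T500 (0.142%) and T1800 (0.85%). With the actin gap (described above) as a covariate it called 0 in all 6, at rates over all probe sets of 0.744% in M500, 0.161% in P2500 and 0% in the others. All 6 comparisons share the Control arrays, and Control holds 2 of the 5 arrays of large actin gap.

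**Figure D1:**
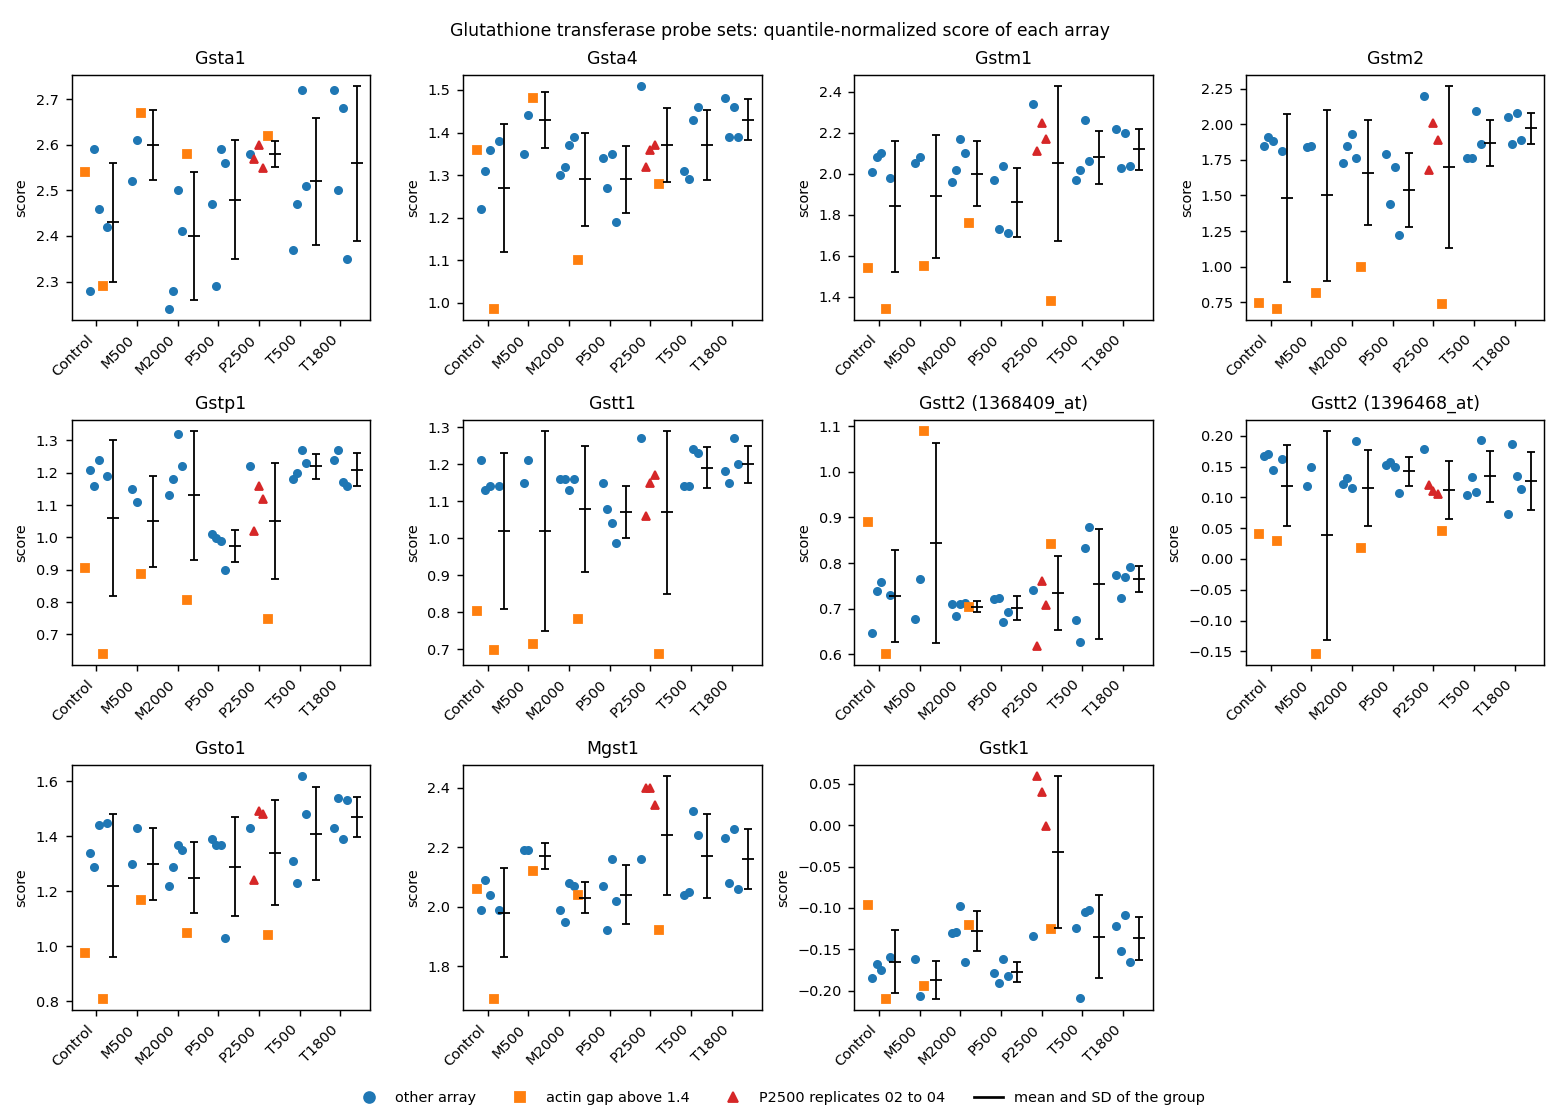
Quantile-normalized score (vertical axis, score units) of each glutathione transferase probe set by group, 1 point per array, with the group mean and SD as a black bar. Orange squares are the 5 arrays with an actin gap above 1.4, which lie lowest for Gstm2 and Gstt1. Red triangles are P2500 replicates 02 to 04, which lie highest for Gstk1 and Mgst1.

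The mu class enzymes Gstm1 and Gstm2 conjugate a wide range of electrophiles. Gstm2 scored 0.705 to 1.91 in Control (median 1.83), with 1.84, 1.85 and 0.816 in M500, 1.73, 1.85, 1.93, 1.76 and 1 in M2000, 1.79, 1.44, 1.7 and 1.22 in P500, 2.2, 1.68, 2.01, 1.89 and 0.738 in P2500, 1.76, 1.76, 2.09 and 1.86 in T500, and 2.05, 1.86, 2.08 and 1.89 in T1800. In Control, M500, M2000 and P2500 1 or 2 arrays fell far below the rest of the group, while T500 and T1800 had no low array. The T1800 mean of 1.97 ± 0.11 (SD, n = 4) exceeded the Control mean of 1.48 ± 0.59 (SD, n = 6) by 0.49 (SE 0.27, limma adjusted p = 0.77), and the T500 mean by 0.39 (SE 0.27, adjusted p = 0.71). The ranges overlapped in both.

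Gstm1 followed the same arrays. It scored 1.34 to 2.1 in Control (median 2), 2.05, 2.08 and 1.55 in M500, 1.96, 2.02, 2.17, 2.1 and 1.76 in M2000, 1.97, 1.73, 2.04 and 1.71 in P500, 2.34, 2.11, 2.25, 2.17 and 1.38 in P2500, 1.97, 2.02, 2.26 and 2.06 in T500, and 2.22, 2.03, 2.2 and 2.04 in T1800. The difference from Control was 0.28 in T1800 (SE 0.16, limma adjusted p = 0.77) and 0.23 in T500 (SE 0.16, adjusted p = 0.7). Across the 28 arrays without liver transcripts the 2 mu class scores had a Pearson correlation of 0.968, and 0.944 over the 23 arrays that also had a gap up to 1.4. The 2 transcripts are close relatives, and whether either probe set also binds the other's transcript was not tested.

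The theta class enzyme Gstt1, which acts on small halogenated compounds, was steady outside those arrays. It scored 0.699 to 1.21 in Control (median 1.14), 1.15, 1.21 and 0.714 in M500, 1.16, 1.16, 1.13, 1.16 and 0.781 in M2000, 1.15, 1.08, 1.04 and 0.987 in P500, 1.27, 1.06, 1.15, 1.17 and 0.688 in P2500, 1.14, 1.14, 1.24 and 1.23 in T500, and 1.18, 1.15, 1.27 and 1.2 in T1800. The lowest array of Control, M500, M2000 and P2500 was in each case one of large actin gap. The difference from Control was 0.18 in T1800 (SE 0.11, limma adjusted p = 0.77).

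These low scores fell in the same 5 arrays, those with an actin gap above 1.4. Gstm2 scored 0.705 to 1 there and 1.22 to 2.2 in the other 26 arrays, a mean difference of -1.03, and only 0.0129% of all probe sets differed further downwards. Gstt1 scored 0.688 to 0.804 against 0.987 to 1.27, and the Gstt2 probe set 1396468_at -0.154 to 0.046 against 0.0737 to 0.193. These 3 of 11 probe sets lay wholly below the other arrays, as did 4.18% of all probe sets, and 0 of 11 lay wholly above, as did 4.72%.

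Most other members were lower in the large-gap arrays on the mean. The difference was -0.55 for Gstm1, -0.37 for Gsto1, -0.36 for Gstp1, -0.16 for Mgst1, -0.12 for Gsta4 and -0.02 for Gstk1. Gsta1 differed by 0.05 and the Gstt2 probe set 1368409_at by 0.1 in the other direction. Thus 9 of 11 quantile-normalized probe sets were lower, and 6 of 11 lay below -0.15, the 10th percentile of all probe sets, whose median was -0.0023. As deposited, Control replicate 02 and M500 replicate 04 scored 2.83 and 3.11 for Mgst1 and 1.81 and 2.03 for Gsta4, above every other array. Control replicate 06, M2000 replicate 05 and P2500 replicate 05 then scored 1.68, 1.86 and 1.83 for Mgst1 and 1.05, 1.07 and 1.26 for Gsta4. The count of 9 therefore holds for the quantile-normalized scores. Cell markers also moved in the large-gap arrays. The 9 spermatid scores summed to 31.5 to 33.3 against 33.5 to 34.8 elsewhere. The 3 erythrocyte scores summed to 1.01 to 1.46 against 1.59 to 2.88, and both sums lay wholly apart. The 6 Sertoli cell scores summed to 7.37 to 8.34 against 6.62 to 7.56 and the 7 Leydig cell scores to 5.99 to 6.86 against 5.61 to 8.41, both with overlap. The part of RNA quality or of cell make-up in these scores was not tested.

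**Figure D2:**
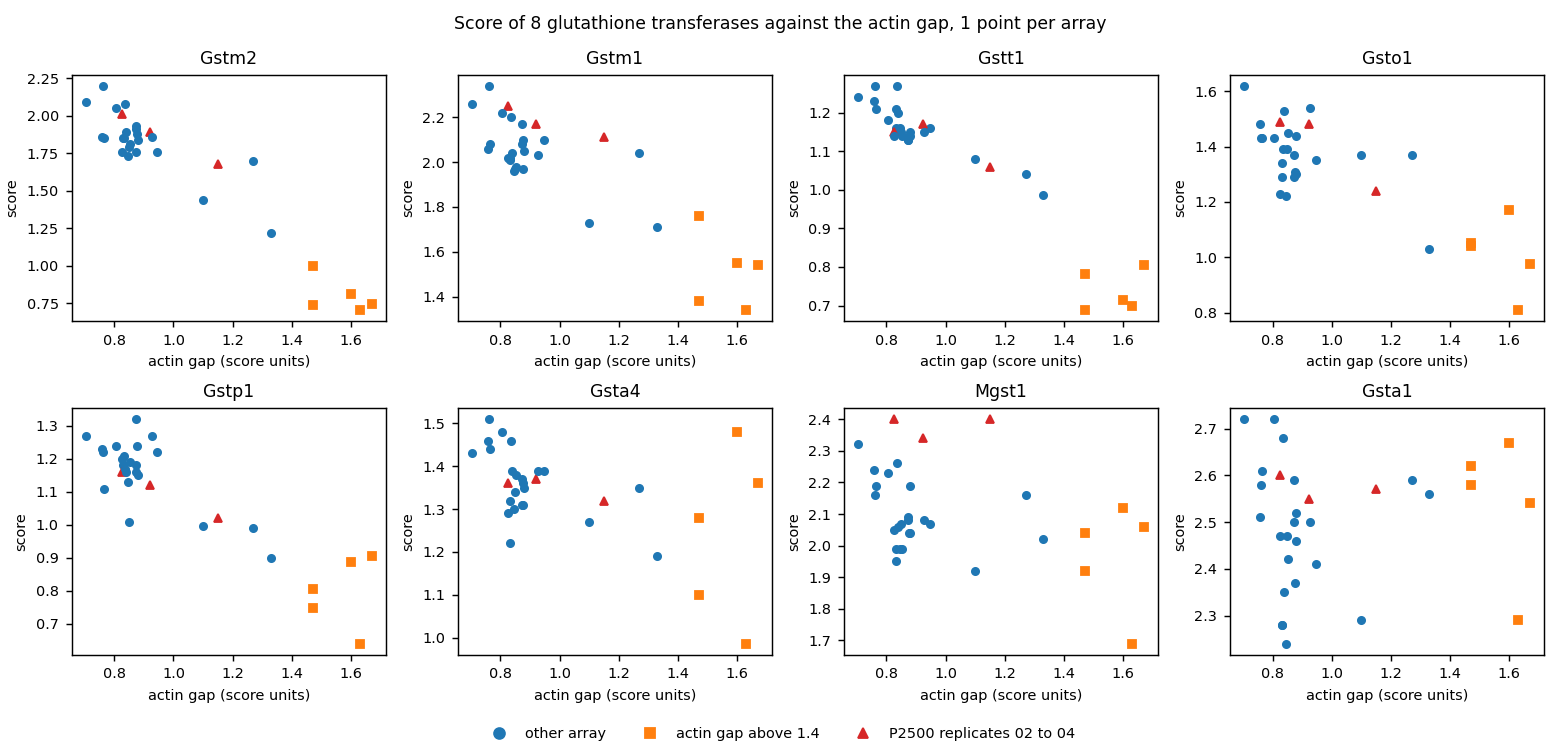
Quantile-normalized score (vertical axis) against the actin gap (horizontal axis, score units) for 8 glutathione transferases, 1 point per array, 31 arrays in each panel. All but Gsta1 have their lowest score at a gap above 1.4 (orange squares), while Gsta1 spreads over the same range at every gap.

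For Gstm2 in T1800 and T500, and Gstm1 and Gstt1 in T1800, the difference from Control was smaller in both actin gap settings. These left out the 5 arrays of large gap or took the gap as a covariate. Those arrays also differed in cell marker sums, and the part of the gap itself was not tested. Without the 5 arrays, Gstm2 in T1800 was 0.11 above Control (SE 0.1) and in T500 0.01 (SE 0.1). With the gap as a covariate over all arrays the values were 0.1 (SE 0.084) and -0.09 (SE 0.086). Gstm1 in T1800 went from 0.28 to 0.08 under either setting, and Gstt1 from 0.18 to 0.04 and 0.02.

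The medians of the members moved more than the counts of positive differences. In T500 and in T1800 11 of 11 probe sets had a positive difference, against 10 and 10 of 11 without the 5 arrays, 7 and 10 with the gap as a covariate, and 10 and 9 on the scores as deposited. The median difference was 0.16 in both groups with all arrays, 0.03 in T500 and 0.08 in T1800 without the 5 arrays, and 0.02 and 0.08 with the covariate. Cell markers also differed in the triadimefon groups. The 3 erythrocyte scores summed to 2.31 to 2.88 in T500, 2.27 to 2.5 in T1800 and 1.01 to 2.09 in Control, and the 7 Leydig cell scores to 6.98 to 8.33, 6.2 to 7.85 and 5.86 to 7.55. The 9 macrophage and endothelium scores summed to 1.46 to 2.38, 2.02 to 2.78 and 1.43 to 2.45. The erythrocyte ranges were apart from Control and the others overlapped it. Only 3 of 7 listed erythrocyte markers were measured, and 1 of them carried most of the difference. Their differences from Control ran from 0.03 to 0.71 in T500 (median 0.048) and from 0.03 to 0.525 in T1800 (median 0.04). The part of any of these cell types in the member scores was not tested. Over all probe sets the median difference ran from -0.0036 to 7e-04 in the 6 comparisons.

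**Figure D3:**
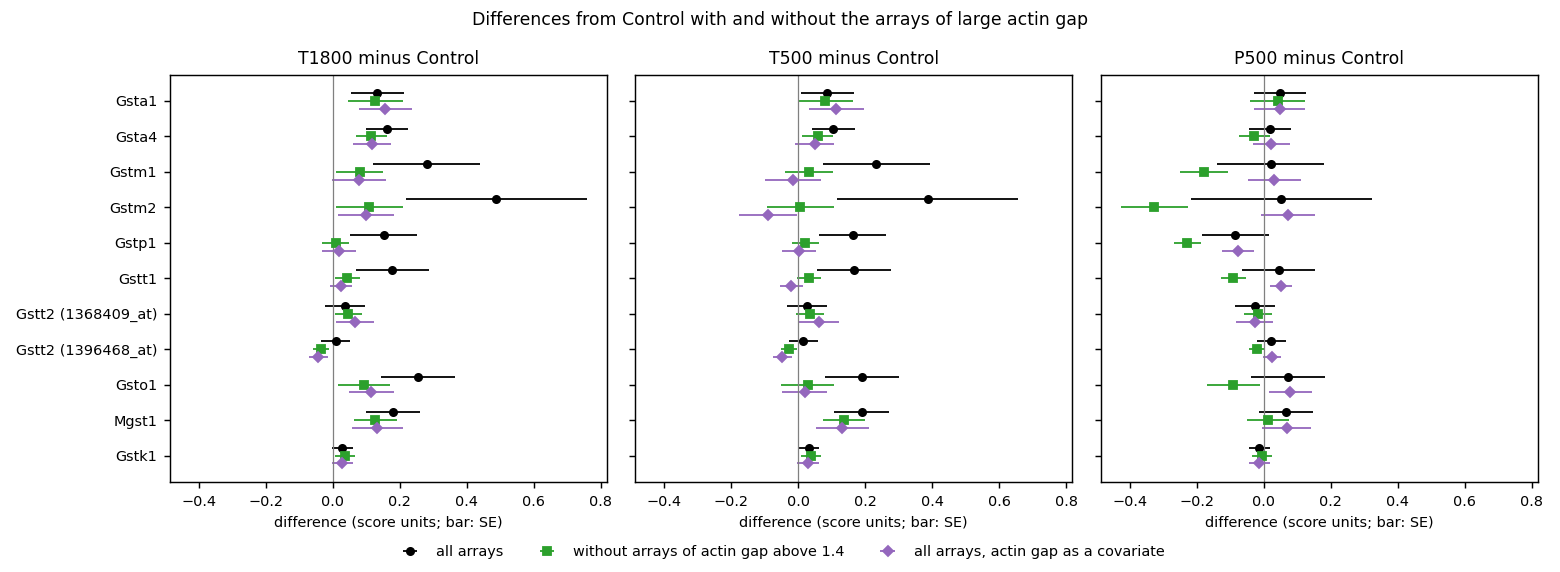
Difference from Control (horizontal axis, score units, bars of 1 SE) of each glutathione transferase probe set in T1800, T500 and P500. Black points use all arrays, green squares leave out the 5 arrays with an actin gap above 1.4, and purple diamonds keep all arrays with the gap as a covariate. In T500 Gstm2 falls from 0.39 to 0.01 and -0.09, and in P500 Gstp1 goes from -0.09 to -0.23 and -0.08.

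The pi class enzyme Gstp1, which in rat is known as a marker of preneoplastic liver foci, had its lowest group mean in P500. It scored 0.64 to 1.24 in Control (median 1.17), 1.15, 1.11 and 0.886 in M500, 1.13, 1.18, 1.32, 1.22 and 0.805 in M2000, 1.01, 0.997, 0.99 and 0.898 in P500, 1.22, 1.02, 1.16, 1.12 and 0.749 in P2500, 1.18, 1.2, 1.27 and 1.23 in T500, and 1.24, 1.27, 1.17 and 1.16 in T1800. All 4 P500 arrays lay below the 4 Control arrays with a gap up to 1.4, which scored 1.16 to 1.24, but within the range of all 6. The P500 difference from Control was -0.09 (SE 0.1, limma adjusted p = 1), and -0.17 without Control replicate 06.

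Without the 5 arrays of large gap the P500 difference of Gstp1 was -0.23 (SE 0.04, adjusted p = 0.032), one of 198 probe sets (0.638%) then called. The actin gaps of P500 replicates 01 to 04 were 0.85, 1.1, 1.27 and 1.33, those of the 4 remaining Control arrays 0.833 to 0.878. With the gap as a covariate among the arrays left, the difference was -0.16 (SE 0.045, adjusted p = 0.97) and 0% of probe sets were called, and with the covariate over all arrays it was -0.08 (SE 0.048, adjusted p = 0.77). P500 replicate 01, whose gap was like that of those controls, scored 1.01, but it is 1 array. The part of the actin gap in the P500 difference was not tested.

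The alpha class includes Gsta1, which also reduces lipid hydroperoxides, and Gsta4, which conjugates 4-hydroxynonenal from lipid peroxidation. Gsta1 scored 2.28 to 2.59 in Control (median 2.44), 2.52, 2.61 and 2.67 in M500, 2.24, 2.28, 2.5, 2.41 and 2.58 in M2000, 2.47, 2.29, 2.59 and 2.56 in P500, 2.58, 2.57, 2.6, 2.55 and 2.62 in P2500, 2.37, 2.47, 2.72 and 2.51 in T500, and 2.72, 2.5, 2.68 and 2.35 in T1800. After quantile normalization P2500 was the tightest group, and every group overlapped Control. The P2500 difference was 0.15 (SE 0.073, limma adjusted p = 1) and the M500 difference 0.17 (SE 0.086, adjusted p = 0.57). On the scores as deposited, without quantile normalization, the P2500 difference was -0.02. The P2500 arrays then scored 3.05, 2.31, 2.29, 2.34 and 2.44 and those of P500 2.57, 2.19, 2.33 and 2.42, so P2500 was not the tightest group.

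Gsta4 scored 0.986 to 1.38 in Control (median 1.33), 1.35, 1.44 and 1.48 in M500, 1.3, 1.32, 1.37, 1.39 and 1.1 in M2000, 1.34, 1.27, 1.35 and 1.19 in P500, 1.51, 1.32, 1.36, 1.37 and 1.28 in P2500, 1.31, 1.29, 1.43 and 1.46 in T500, and 1.48, 1.39, 1.46 and 1.39 in T1800. All 4 T1800 arrays lay above all 6 Control arrays, the only member in that comparison whose ranges were apart, as were 1.13% of all probe sets on the higher side. The difference was 0.16 (SE 0.063, limma adjusted p = 0.77), and 0.11 without the large-gap arrays (SE 0.046) or without Control replicate 06 alone. In M500 it was also 0.16 (SE 0.069, adjusted p = 0.49), and 0.08 (SE 0.056) without them.

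Gsto1, an omega class enzyme with thioltransferase and dehydroascorbate reductase activity, ranged from 0.809 to 1.45 in Control (median 1.32). It scored 1.3, 1.43 and 1.17 in M500, 1.22, 1.29, 1.37, 1.35 and 1.05 in M2000, 1.39, 1.37, 1.37 and 1.03 in P500, 1.43, 1.24, 1.49, 1.48 and 1.04 in P2500, 1.31, 1.23, 1.62 and 1.48 in T500, and 1.43, 1.54, 1.39 and 1.53 in T1800. The T1800 arrays overlapped the upper Control arrays. The difference was 0.26 (SE 0.11, limma adjusted p = 0.77), and 0.09 (SE 0.079) without the large-gap arrays.

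The microsomal Mgst1, which has both transferase and peroxidase activity against lipid hydroperoxides, was highest in P2500. It scored 1.69 to 2.09 in Control (median 2.02), 2.19, 2.19 and 2.12 in M500, 1.99, 1.95, 2.08, 2.07 and 2.04 in M2000, 2.07, 1.92, 2.16 and 2.02 in P500, 2.16, 2.4, 2.4, 2.34 and 1.92 in P2500, 2.04, 2.05, 2.32 and 2.24 in T500, and 2.23, 2.08, 2.26 and 2.06 in T1800. The 3 high P2500 values belong to replicates 02 to 04, the arrays with liver transcripts, while replicates 01 and 05 lay inside the range of the other groups. In M500 all 3 arrays lay above all 6 Control arrays, as did 1.12% of all probe sets, with a difference of 0.19 (SE 0.089, limma adjusted p = 0.54).

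The P2500 difference of Mgst1 was 0.27 (SE 0.076, limma adjusted p = 0.21) with all 5 arrays and 0.06 (SE 0.089, adjusted p = 1) without replicates 02 to 04. It passed the threshold with array weights (0.32, adjusted p = 0.00021), without the large-gap arrays (0.29, adjusted p = 0.016; 0.992% of probe sets called), the same with the gap as a covariate (0.29, adjusted p = 0.021; 1.02%) and without P2500 replicate 05 (0.35, adjusted p = 0.0047; 0.912%), and each of these keeps the liver arrays. The 7 Leydig cell markers summed to 8.17 to 8.41 in replicates 02 to 04 and to 5.61 to 8.33 in the other 28 arrays. Their part in the Mgst1 score was not tested.

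Gstk1, the mitochondrial and peroxisomal kappa class enzyme, showed the smallest p of all members. It scored -0.21 to -0.0966 in Control (median -0.171), -0.162, -0.206 and -0.194 in M500, -0.13, -0.129, -0.0981, -0.165 and -0.121 in M2000, -0.179, -0.191, -0.162 and -0.182 in P500, -0.134, 0.0593, 0.0406, -0.000504 and -0.126 in P2500, -0.124, -0.209, -0.105 and -0.102 in T500, and -0.122, -0.152, -0.109 and -0.165 in T1800. Again P2500 replicates 02 to 04 were the high arrays, and all others lay at or below -0.0966. The P2500 difference was 0.13 (SE 0.029, limma adjusted p = 0.081) with all arrays and 0.04 (SE 0.028, adjusted p = 1) without the liver arrays. It passed the threshold with array weights (0.18, adjusted p = 9.8e-07), without the large-gap arrays (0.16, adjusted p = 0.0064), the same with the gap as a covariate (0.16, adjusted p = 0.0075), without P2500 replicate 01 (0.16, adjusted p = 0.0017; 0.863% of probe sets called) and without replicate 05 (0.16, adjusted p = 0.002). Each of these fits keeps the liver arrays.

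Of the 11 probe sets, Gstk1 and Mgst1 were the 2 that scored above all other 28 arrays in P2500 replicates 02 to 04, as did 1.12% of all probe sets, and 0 scored below all of them (0.0515%). The other 9 lay within the range of the remaining arrays. Gsta1 scored 2.55 to 2.6 in the liver arrays and 2.24 to 2.72 elsewhere, and Gstp1 1.02 to 1.16 against 0.64 to 1.32. Liver transcripts and the 2500 ppm dose of propiconazole cannot be told apart within these 3 arrays, and the 2 other arrays of the group gave Mgst1 scores of 2.16 and 1.92 and Gstk1 scores of -0.134 and -0.126.

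**Figure D4:**
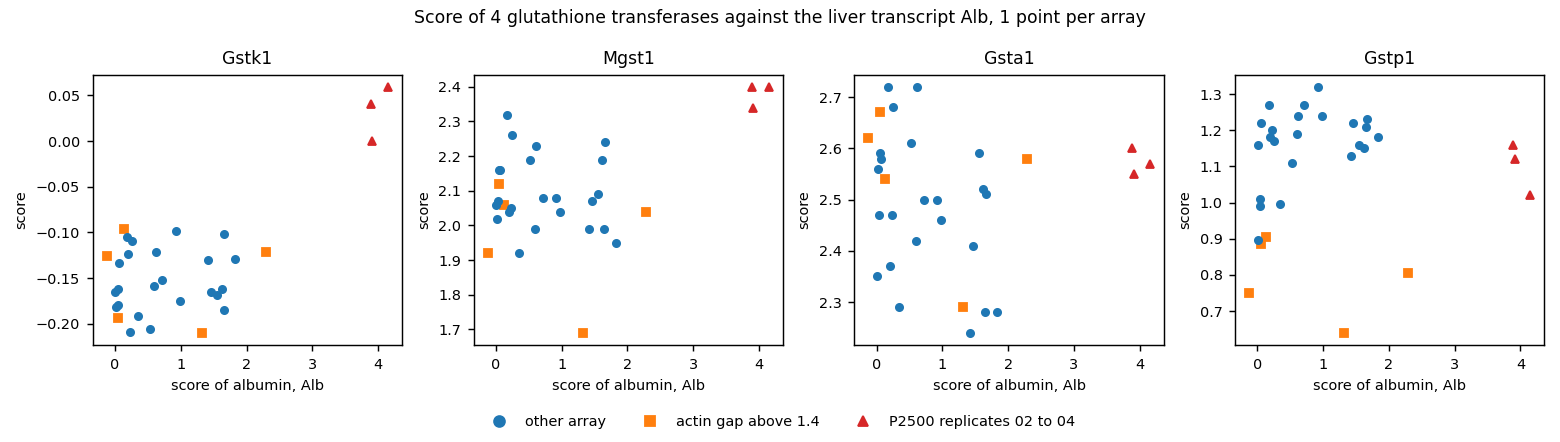
Quantile-normalized score (vertical axis) of Gstk1, Mgst1, Gsta1 and Gstp1 against the score of the liver transcript Alb (horizontal axis), 1 point per array, 31 arrays. P2500 replicates 02 to 04 (red triangles, Alb 3.89 to 4.15) lie above all other arrays for Gstk1 and Mgst1 and within them for Gsta1 and Gstp1.

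Gstt2, a theta class enzyme with sulfatase activity, was read by 2 weak probe sets that did not move together. In the large-gap array M500 replicate 04, 1368409_at had its highest score of 1.09 and 1396468_at its lowest of -0.154. Across groups the lowest and highest scores of 1368409_at were 0.601 and 0.889 in Control, 0.677 and 1.09 in M500, 0.683 and 0.713 in M2000, 0.67 and 0.724 in P500, 0.619 and 0.841 in P2500, 0.628 and 0.878 in T500, and 0.724 and 0.791 in T1800. Those of 1396468_at were 0.0293 and 0.171 in Control and -0.154 and 0.193 over all arrays. Neither had an unadjusted p under 0.05 against Control in any group.

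**Figure D5:**
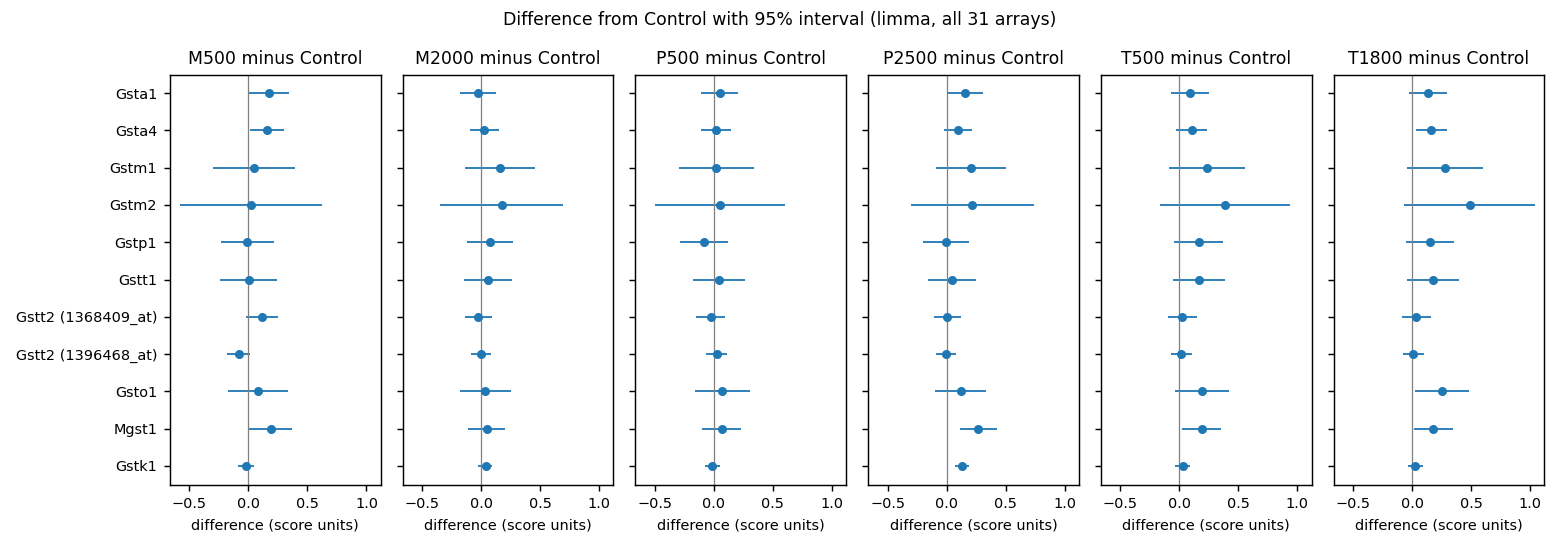
Difference from Control (horizontal axis, score units) of each glutathione transferase probe set with its 95% interval from the limma fit over all 31 arrays, 1 panel per exposed group. Gstm2 has the widest intervals, -0.07 to 1.04 in T1800, and Gstk1 the narrowest, and 0 of 11 probe sets pass the adjusted threshold in any panel.

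At the matched dose of 500 ppm the 3 compounds were compared in 3 pairs. No member passed the threshold in any pair, and neither did any probe set of the array (0% in each). At an unadjusted p under 0.05 there were 0 members for myclobutanil against propiconazole (7.48% of all probe sets), 0 for myclobutanil against triadimefon (6.69%) and 1 for propiconazole against triadimefon (5.08%), and with array weights limma called 0 members in each (0%, 0% and 0.171% of all).

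The 1 member was Gstp1, whose P500 arrays (0.898 to 1.01) all lay below the T500 arrays (1.18 to 1.27), as did 3.16% of all probe sets. The difference was -0.25 (95% interval -0.47 to -0.02, limma adjusted p = 0.89). Without the large-gap arrays, of which neither group holds one, the spread estimated from the other groups was smaller and the adjusted p was 0.0049 (2.18% of probe sets called). With the gap as a covariate the difference was -0.08 (SE 0.056, adjusted p = 0.75) over all arrays and -0.17 (SE 0.05, adjusted p = 0.77) among the arrays left.

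Gstp1 in M500 also lay below T500 (3 of 3 arrays, 2.52% of all probe sets), by -0.17 (95% interval -0.42 to 0.07), and by -0.09 (SE 0.13) without the large-gap array M500 replicate 04. Gsta4 in M500 lay above P500 in 3 of 3 arrays (2.86% of all probe sets), by 0.14 (95% interval -0.02 to 0.29), by 0.11 (SE 0.056) without the large-gap arrays, and by 0.02 (SE 0.06) with the gap as a covariate among the arrays left. For Gstm2 the intervals were wide, -0.69 to 0.62 for M500 minus P500, -1.02 to 0.29 for M500 minus T500 and -0.94 to 0.27 for P500 minus T500, so these pairs are not shown to act alike. In P500 10 of 11 probe sets were lower than in T500, with a median of -0.12, and 11 of 11 on the scores as deposited, but 6 of 11 with the actin gap as a covariate. The gaps were 0.85 to 1.33 in P500 and 0.704 to 0.875 in T500.

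The high doses differ between compounds (2000, 2500 and 1800 ppm), so their values stand side by side above without a comparison. Within a compound, no member differed between the high and the mid dose past the threshold. All T500 arrays but only replicate 02 of T1800 are in the earlier animal number series, so the triadimefon doses largely overlap with series. The call rate over all probe sets was 0% for myclobutanil and propiconazole and 0.00322% for triadimefon. At an unadjusted p under 0.05 there were 2 member probe sets for myclobutanil (7.55% of all), 2 for propiconazole (3.83%) and 0 for triadimefon (1.97%).

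For myclobutanil these were Gsta1, lower at 2000 than at 500 ppm by -0.2 (SE 0.088, limma adjusted p = 0.62), and the Gstt2 probe set 1368409_at, by -0.14 (SE 0.067, adjusted p = 0.66). Without the large-gap array M500 replicate 04 the Gstt2 difference was -0.02 (SE 0.061) and that of Gsta1 -0.16 (SE 0.1). Mgst1 had all 5 M2000 arrays below all 3 M500 arrays (1.98% of all probe sets), by -0.14 (SE 0.092, adjusted p = 0.77). With array weights limma called 0 members for myclobutanil (0.0419% of all) and 0 for triadimefon (0.116%).

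For propiconazole the 2 were Gstk1, higher at 2500 ppm by 0.15 (SE 0.032, limma adjusted p = 0.15), and Mgst1, by 0.2 (SE 0.084, adjusted p = 1). All 5 P2500 arrays of Gstk1 lay above all 4 P500 arrays, as did 0.409% of all probe sets. Without the liver arrays the differences were 0.05 (SE 0.029, adjusted p = 1) and -0.003 (SE 0.094, adjusted p = 1), and 0% of probe sets were called. With array weights, in a fit that keeps the liver arrays, both were called (0.19 and 0.3, limma adjusted p = 7.2e-06 and 0.0038, 2.75% of all).

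Across the 28 arrays without liver transcripts, each gene's closest matches among 9661 genes were ranked by Pearson correlation, as a description over arrays that share the differences in actin gap. Gstm1 came closest to Gstm2 (0.968), Insl3, the peptide hormone of Leydig cells (0.951), and Gamt, which makes creatine (0.943). Gstm2 came closest to Rabac1 (0.982), Drap1 (0.976) and Fis1 (0.972), and Gstt1 to Ube2s (0.977), Tmem205 (0.974) and Fbxo36 (0.972). Mgst1 came closest to Tspo, the mitochondrial translocator protein of steroid-forming cells (0.916), then to Sdhc (0.889) and its relative Mgst2 (0.871).

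Gsta1 came closest to Decr1, an enzyme of fatty acid oxidation (0.87), Ces1d (0.825) and Ctsh (0.821). Gsta4 was closest to the respiratory chain subunit Uqcrh (0.889), Gsto1 to Ndufa4 and Dbi (0.945 each) and Gstp1 to the probe set named Myh1 (0.939). Gstk1 had no close match, its nearest being Tagln (0.632). Among the members, Gstm2 and Gstt1 reached 0.968, Gstm2 and Gstp1 0.906, and Gsta1 and Gstm2 0.0215. Over the 23 arrays with neither liver transcripts nor a large gap, those values were 0.842, 0.743 and 0.399.

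Lists of related genes were counted as well. The list called other transferases here had 14 measured genes, and it also holds Ptges and Gstcd. There were 18 genes of glutathione synthesis and recycling and 9 of conjugate export and mercapturate formation. The NRF2 response had 16 and the CAR and PXR response 11. Of all these lists, 0 genes passed the threshold in either direction in any of the 6 comparisons with Control. At an unadjusted p under 0.05, the other transferases numbered 1 in M500, 0 in M2000, 1 in P500, 3 in P2500, 3 in T500 and 1 in T1800, where all probe sets gave 9%, 1.7%, 3.36%, 4.15%, 7.62% and 5.84%. In the same order of groups, synthesis and recycling had 2, 2, 1, 4, 0 and 1, export 0, 0, 0, 2, 1 and 0, the NRF2 response 3, 0, 1, 2, 2 and 2, and the CAR and PXR response 0, 0, 0, 6, 0 and 0. Gstm5, a testis mu class enzyme, scored 4.02 ± 0.047 (SD, n = 4) in T500 and 3.85 ± 0.17 (SD, n = 6) in Control, a difference of 0.17 (SE 0.056, limma adjusted p = 0.56). Mgst2 differed by 0.17 in T500 (SE 0.059, adjusted p = 0.57) and 0.15 in T1800 (SE 0.059, adjusted p = 0.77).

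Genes that supply glutathione or respond to NRF2 also stayed short of the threshold. Slc7a11, the cystine importer that feeds glutathione synthesis, differed from Control by 0.23 in T1800 (SE 0.064, limma adjusted p = 0.54), 0.2 in M2000 (SE 0.06, adjusted p = 1) and 0.18 in P2500 (SE 0.06, adjusted p = 0.51). Chac2, a glutathione-degrading enzyme, differed by -0.07 in M2000 (SE 0.017, adjusted p = 1). Of the NRF2 genes, Taldo1, an enzyme of the pentose phosphate pathway, differed by 0.16 in M500 (SE 0.035, adjusted p = 0.11), 0.14 in T500 (SE 0.031, adjusted p = 0.52) and 0.12 in T1800 (SE 0.031, adjusted p = 0.44), and it lay above the Control mean in every array of these groups. Nqo1, a quinone reductase, differed by 0.09 in P2500 (SE 0.031, adjusted p = 0.51).

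In P2500 some list genes stood apart in the arrays with liver transcripts, as did 1.12% of all probe sets. Above all other arrays in replicates 02 to 04 were 2 of 14 other transferases (Gstz1 and Gstp3), 3 of 18 synthesis and recycling genes (Anpep, Cth and Cbs), 1 of 9 export genes (Abcc2) and 6 of 11 CAR and PXR response genes, against 0 of 14 NRF2 genes not already counted with synthesis. Cth, which makes cysteine from cystathionine, differed from Control by 0.33 in P2500 (SE 0.077, limma adjusted p = 0.089), and Abcc2, the canalicular conjugate pump of liver, by 0.13 (SE 0.03, adjusted p = 0.089). Slc7a11 and Nqo1 lay within the range of the other arrays there.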

How the data were processed

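Testis RNA of single rats was hybridised to Affymetrix Rat Genome 230 2.0 arrays, per the labels' protocols. Each deposited value is a score of 1 probe set on 1 array. Not given in the sources used here are the authors' probe summary, background correction, normalization and scale. Log-like values were assumed in the design. The table held 31099 rows. After 57 control probe sets were left out, 31042 were tested, 20826 with 1 gene symbol in the platform annotation, 436 with several and 9780 with none. Arrays were quantile normalized and fitted with limma 3.58.1 in R 4.3.3 (lmFit, eBayes): 1 model over 31 arrays with a mean per group, 12 contrasts, Benjamini-Hochberg adjustment over all probe sets, threshold 0.05. The number of arrays limits the precision. The procedure was run on simulated data with independent noise and no arrays set apart, so that run does not test it under conditions like these. For lists, each gene's probe set of highest mean was used. Named were all members and, of 4 lists, any gene past the threshold, otherwise at most the 2 of smallest p per contrast. The members, lists and array sets were chosen with earlier results of these data known. Groups came from the labels. Alternatives were the deposited scores, array weights, the groups compared alone, a filter on low scores, the actin gap, the animal number series, a replicate block and left-out arrays. Promoter sequences are RefSeq's (GRCr8).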

Additional observations from a re-analysis of the deposited data

Results flagged for a closer look

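In 7 of 66 tested sets (1 probe set in 1 group of 4 or more arrays), the lowest array lay farther from its neighbours than Dixon's 95% value allows; chance marks about 1 in 20. Gstm1 scored 1.38 in P2500 replicate 05, the others of the group 2.11 to 2.34. Gstm2 scored 1 in M2000 replicate 05 against 1.73 to 1.93, and Gstt1 0.781 in the same array against 1.13 to 1.16. Mgst1 scored 1.69 in Control replicate 06 against 1.99 to 2.09. Each of these 3 arrays has an actin gap above 1.4. In P500 replicate 04, whose gap of 1.33 was the largest of its group, Gstp1 scored 0.898 against 0.99 to 1.01, Gsto1 1.03 against 1.37 to 1.39 and the Gstt2 probe set 1396468_at 0.107 against 0.149 to 0.158.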

How the results depend on the processing

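Of 2661 member differences recomputed under all alternatives, 338 changed sign and 29 passed the threshold, and 48 of the 132 differences kept their sign under every alternative run. Leaving out both the liver arrays and the large-gap arrays, or the latter with the gap as a covariate, was chosen after seeing the data.

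With all arrays 0 member probe sets were called. Without the large-gap arrays they numbered 1 in P500 minus Control (0.638% of all probe sets) and 1 in P500 minus T500 (2.18%). Without the liver arrays as well they numbered 2 (4.94%) and 3 (4.96%). In that last fit the Gstm2 difference of P500 from Control was -0.327 (limma adjusted p = 0.046), against 0.05 with all arrays. The actin gaps were 0.85 to 1.33 in P500 and 0.833 to 0.878 in the 4 Control arrays left. The part of the gap in this difference was not tested. Without the large-gap arrays and with the gap as a covariate, 0% of probe sets were called in P500 minus Control. In P2500 minus Control 2 members were called with array weights (2.84% of all probe sets) and 2 without the large-gap arrays (0.992%). With the gap as a covariate among the arrays left it was 2 (1.02%). In P2500 minus P500 the counts were 2 (2.75%), 4 (1.37%) and 1 (1.17%). Leaving out the liver arrays as well leaves P2500 replicate 01 alone in its group. The P2500 counts of that fit, given below, assume that the lone array varies like the arrays of the other groups. Leaving out 1 array at a time gave 0 to 2 members in P2500 minus Control (up to 0.912% of all probe sets). It gave 0 to 1 in P2500 minus P500 (up to 0.78%) and 0 elsewhere.

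Counts over all probe sets moved more. In M500 minus Control, with 0 in the main fit, they were 6 on the deposited scores, 61 with array weights, 231 with the gap as a covariate, 18 without the large-gap arrays, 51 with both and 58 without the liver arrays as well. In the same order of settings, where a count changed, M2000 minus Control had 8 with weights; P500 minus Control 17 with weights, 198 without large-gap arrays and 1532 without the liver arrays as well; P2500 minus Control 882, 50, 308, 318 and 134. T500 minus Control had 44 with weights and 2 without large-gap arrays, with or without the covariate. T1800 minus Control, with 2, had 264 with weights and 0 on the deposited scores, under the 4 gap settings and within the earlier or the later animal number series. M500 minus P500 had 1 on the deposited scores, 15 with the covariate, 11 without large-gap arrays and 107 without the liver arrays as well. P500 minus T500 had 53 with weights, 676 and 1540. M2000 minus M500 had 7 on the deposited scores, 13 with weights, 1 without large-gap arrays and 2 with the covariate among the rest. P2500 minus P500 had 855, 22, 426, 362 and 2573. T1800 minus T500, with 1, had 0 on the deposited scores and with the animal number series as a block, 36 with weights, 2 with the covariate, 3 without large-gap arrays, 4 with both and 3 without the liver arrays as well. With the compared groups alone, P2500, T500 and T1800 against Control had 1 each, M500 minus P500 2 and T1800 minus T500 0. With the filter on low scores, P2500 minus Control had 1 and T500 minus Control 2. The causes were not tested. Leaving out 1 array at a time gave 0 to 156 in M500 minus Control, 0 to 283 in P2500, 0 to 3 in T500, 0 to 5 in T1800, 0 to 19 in M500 minus P500, 0 to 5 in M500 minus T500, 0 to 35 in M2000 minus M500, 0 to 242 in P2500 minus P500 and 0 to 2 in T1800 minus T500.

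With the replicate block, 0 member probe sets were called (smallest adjusted p = 0.13), and over all probe sets 1 in each of M500, P2500, T500 and T1800 minus Control and 0 in T1800 minus T500. The deviations of 73 same-number pairs of arrays correlated at -0.768 to 0.775 (median 0.0388, 30 over 0.1). Those of 336 different-number pairs correlated at -0.731 to 0.765 (median 0.0372, 136 over 0.1), so the numbers were not taken to pair the rats.

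Limits are 3 to 6 rats a group, unknown litters and scale, 3 weak probe sets, and 2 sets of arrays that stand apart and overlap with the groups.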
